A study of Mus musculus with 16 samples.

Results

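The genes described here bring iron into a cell, store it, sense it and let it out. They are 10 in number and were taken by exact symbol from the deposited table of 23410 gene symbols: Tfrc, Tfr2, Steap3 and Slc11a2 for uptake, Ftl1, Fth1 and Ncoa4 for storage, Aco1 and Ireb2 for control, and Slc40a1 for export. All 10 were in the table and all 10 passed the filter on low counts, which 10080 symbols passed. RNA was sequenced from G1E-ER4, a mouse erythroid line that has no GATA1 of its own and carries a fusion of GATA1 with the hormone-binding domain of the estrogen receptor. That fusion protein enters the nucleus when beta-estradiol is added, and the series graded that step to switch on the genes that GATA1 controls. Cells grew with serum, stem cell factor and erythropoietin and received 0, 12.5, 25, 50, 75, 100, 150 or 200 nM beta-estradiol, with 2 libraries a dose and 16 in all. Every dose therefore shares the same line, the same fusion protein and the same medium, and 0 nM is the control. The sources used here do not give the time of exposure. They also do not say whether the 2 libraries of a dose came from separate cultures, so p-values measure only the spread between these libraries, which may be technical.

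Red cell precursors take up more iron than other cells because each hemoglobin chain carries a heme with an iron atom. Iron arrives on transferrin, which binds the transferrin receptor at the cell surface and is carried into endosomes. There a reductase turns the iron into its ferrous form and an importer moves it into the cytosol. Spare iron is kept inside ferritin, a shell built from heavy and light chains, and ferroportin at the surface exports it. The 2 iron regulatory proteins bind a hairpin called the iron-responsive element when iron is scarce. A hairpin near the start of a transcript then blocks its translation, and hairpins near the end of the Tfrc transcript protect it from decay.

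Of the 10 genes, 4 held such a hairpin by a search of their untranslated regions in the GENCODE M21 transcripts, on GRCm38. The search asked for the loop, written CAGTGN, a C that lies 6 bases before it, and 5 base pairs above that C, on the transcript strand. Such a match was present in the 5′ untranslated region of 28 of 20873 genes (0.134%) and in the 3′ untranslated region of 127 of 20981 genes (0.605%). The 7 matches are shown because iron regulatory proteins are known to bind this hairpin in these 4 transcripts. Each is 27 bases, 5′ to 3′ on the transcript strand, with the 6 loop bases in capitals.
Fth1, 5′ untranslated region, chr19:9982733-9982759, plus strand: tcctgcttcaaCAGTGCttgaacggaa
Ftl1, 5′ untranslated region, chr7:45459780-45459806, minus strand: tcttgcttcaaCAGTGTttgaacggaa
Slc40a1, 5′ untranslated region, chr1:45925466-45925492, minus strand: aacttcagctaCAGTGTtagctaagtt
Tfrc, 3′ untranslated region, chr16:32631220-32631246, plus strand: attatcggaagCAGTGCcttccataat
Tfrc, 3′ untranslated region, chr16:32631599-32631625, plus strand: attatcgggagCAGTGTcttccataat
Tfrc, 3′ untranslated region, chr16:32631664-32631690, plus strand: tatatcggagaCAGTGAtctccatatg
Tfrc, 3′ untranslated region, chr16:32631711-32631737, plus strand: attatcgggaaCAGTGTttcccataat
The ferritin hairpins sit 99 bases (Fth1) and 90 bases (Ftl1) from the start of the transcript, and that of Slc40a1 sits 102 bases from it. No match in the other 6 genes, Slc11a2 among them, says only that these letters were not found in the annotated windows. A hairpin with an unpaired base among the 5 pairs would be missed, so these genes are not shown to lack an iron-responsive element.

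GATA1 binds a short motif that was searched for in 4 forms. One was AGATAA, the next was TGATAA, another was AGATAG, and the last was TGATAG. RefSeq starts on GRCm38.p6 were listed for 8 of the 10 genes, with 17 starts in all. In the 250 bases before each start, on both strands, 3 of the 17 windows held a form of the motif, against 26.5% of 32851 windows of all genes. The E-box CANNTG was in 8 of the 17 windows, against 66.2% of all. The 3 GATA matches are shown on the strand of the gene with the motif in capitals, since the dose acts through this factor. In Steap3 the motif lies on the opposite strand and reads TTATCT.
Ncoa4, chr14:32159752-32159777, plus strand, 125 bases before a start: agagacttacTGATAGgcacgaaaat
Steap3, chr1:120271110-120271135, minus strand, 45 bases before a start: ccggagagtgTTATCTccctccagtt
Tfr2, chr5:137570904-137570929, plus strand, 61 bases before a start: ctgtcagggcTGATAAggggccctct
Each of the 3 genes has at least 1 other listed start with no match before it. A match here is a run of letters and was not tested for binding.

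Library totals ran from 9393156 to 15802510 counts. Levels are given as CPM, which are counts scaled by the library total and its TMM factor to a common library size, and a gene was called where its edgeR quasi-likelihood p, adjusted by Benjamini-Hochberg over the 10080 genes tested, was under 0.05. The composition of the libraries moved with the dose. Rn45s, the ribosomal RNA precursor, took 14.6% and 15.3% of counts at 200 nM, against 9.61% and 9.53% at 0 nM, and the globin genes took 5.88% and 5.82%, against 0.151% and 0.151%. The TMM factor was 0.846 and 0.843 at 200 nM, against 1.10 and 1.10 at 0 nM, and with library size alone the log2 change of the median gene at 200 nM was -0.36. Leaving Rn45s and the globin genes out of the counts gave the same numbers of the 10 genes higher and lower at every dose. Markers of erythroid cells, 10 of 12 of them in the table, summed to 26787 to 27435 CPM at 200 nM, against 2163 to 2248 CPM at 0 nM. Hba-a2 alone averaged 10393 CPM at 200 nM, against 279 CPM at 0 nM. Kit was lower, with 192 CPM at 200 nM against 520 CPM at 0 nM, and the others in the table were higher. Gata1 was among these others, with 1643 CPM at 200 nM against 711 CPM at 0 nM. Whether its reads came from the fusion was not tested. Of 8 macrophage markers 5 were at 0 in every library, among them Cd163 and C1qa, and the sum was 1.95 to 2.58 CPM at 200 nM, against 0.429 to 1.01 CPM at 0 nM. Of 7 hepatocyte markers 3 and of 5 lymphocyte markers 4 were at 0 throughout, and neither sum passed 0.368 CPM at 200 or 0 nM. Megakaryocyte markers, of which Gp1bb and Vwf stayed at 0, summed to 432 to 445 CPM at 200 nM, against 10.03 to 11.3 CPM at 0 nM, and their part in the results was not tested. Itgb3 alone averaged 404 CPM at 200 nM, against 7.77 CPM at 0 nM. In bulk RNA a change in the share of cells of a type and a change in the RNA per cell cannot be told apart.

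Seen as a group, most of the iron genes were higher at the upper doses. At 12.5 nM 2 of the 10 were called, both higher, where 0.506% of all genes were called, 0.278% as higher and 0.228% as lower. By 25 nM 3 of the 10 were higher, where 4.02% of all genes were called, 3% as higher and 1.02% as lower. A dose of 50 nM gave 7 higher genes and 1 lower gene, where 33.5% of all genes were called, 18.8% as higher and 14.7% as lower. For 75 nM the numbers were 8 and 1, where 56% of all genes were called, 29% as higher and 26.9% as lower. For 100 nM they were 6 and 2, where 66.6% of all genes were called, 34.1% as higher and 32.5% as lower. With 150 nM 6 genes were higher and 3 lower, where 74.3% of all genes were called, 37.7% as higher and 36.6% as lower. All 10 genes were called at 200 nM, 8 of them higher, where 80% of all genes were called, 40.5% as higher and 39.5% as lower. The number called thus stood near the background from 100 nM upward. The share that was higher depends on the scaling. With library size alone there were 6 higher genes beside 3 lower ones at 200 nM, where it called 2819 of all genes as higher and 5396 as lower. The same scaling gave 6 beside 2 at 75 nM, where 2143 of all genes were higher and 3811 lower. The median log2 change of the 10 genes at 200 nM was 1.19, beside 0.02 over all genes tested. Together the 10 genes took 1.72% and 1.69% of all counts at 200 nM, against 0.911% and 0.910% at 0 nM. All 10 were also called over all doses together (86.3% of all genes were), with Ireb2 the weakest at an adjusted p of 0.00177.

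**Figure D1:**
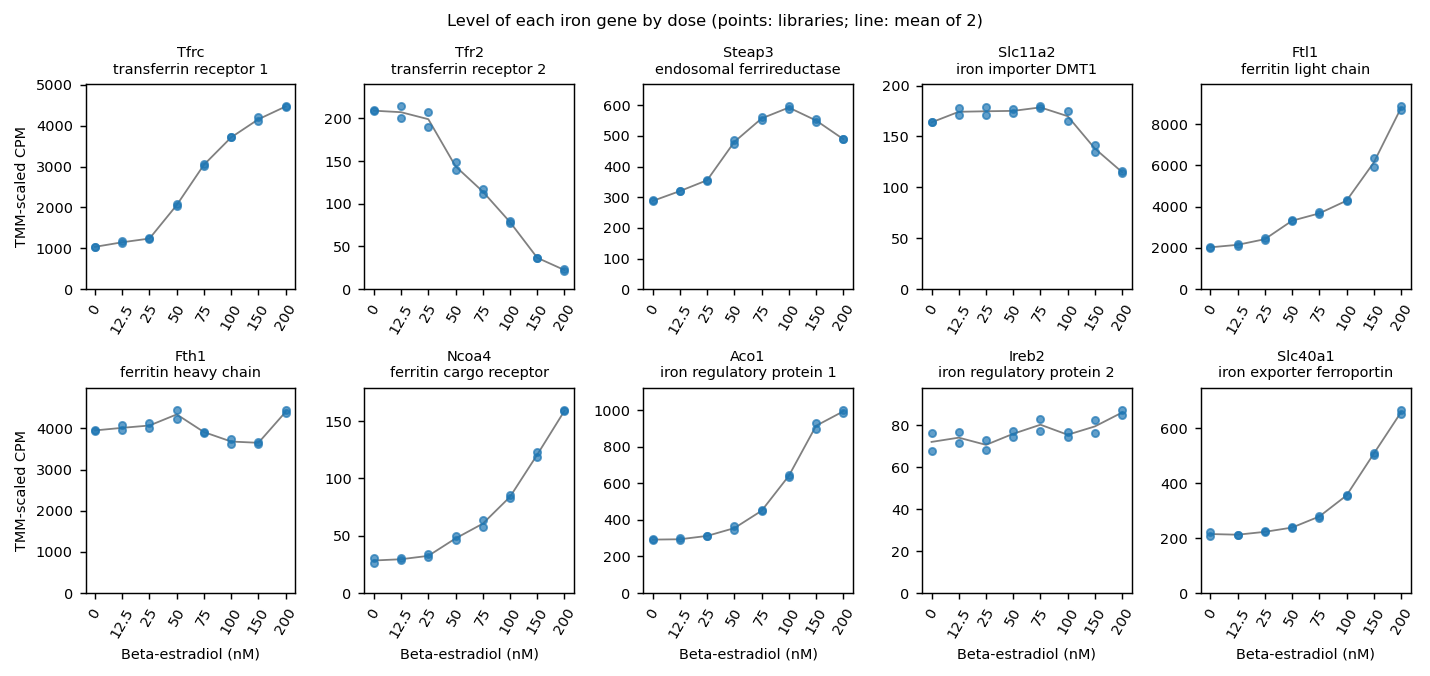
TMM-scaled CPM (y axis, from 0) of each iron gene at 8 doses of beta-estradiol in nM (x axis, doses evenly spaced), with a point for each library and a line through the mean of 2. Tfrc and Ftl1 climb over the whole range to 4472 and 8775 CPM at 200 nM, Tfr2 sinks to 22.4 CPM, Steap3 has its top at 100 nM, and Fth1 stays between 3623 and 4442 CPM in all 16 libraries.

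Tfrc, the transferrin receptor that brings in most of the iron of red cell precursors, was 1 of the 2 genes called at the lowest dose. It lies at chr16:32608920-32632794 on GRCm38. Its level was 1040.3 and 1033 CPM at 0 nM, 1169.8 and 1127 CPM at 12.5 nM, 1230.3 and 1249 CPM at 25 nM, and 2089 and 2028 CPM at 50 nM. At the higher doses it was 3068 and 3024 CPM at 75 nM, 3714 and 3719.8 CPM at 100 nM, 4108 and 4211 CPM at 150 nM, and 4468 and 4475 CPM at 200 nM. No library overlapped with one of another dose, and the order of the libraries was the order of the doses. At 12.5 nM the log2 fold change against 0 nM was 0.15 ± 0.03 (standard error, adjusted p = 0.00062), and at 200 nM it was 2.11 ± 0.03 (adjusted p = 6.34e-48). The call at 12.5 nM rests on single libraries, since it was lost without the second 0 nM library (adjusted p = 0.0746) and without the first 12.5 nM library (adjusted p = 0.107). Most of the climb fell between 25 and 75 nM. The step between 25 and 50 nM was 0.73 ± 0.03 on the log2 scale and that between 50 and 75 nM 0.57 ± 0.03, while the last step, between 150 and 200 nM, was 0.10 ± 0.03 (adjusted p = 0.000752). With library size alone the last step was -0.00355, so its direction rests on the scaling.

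Tfr2, the second transferrin receptor, which binds transferrin more weakly and is known as an iron sensor in liver and as a partner of the erythropoietin receptor, did the opposite. It lies at chr5:137569840-137587481. Its libraries had 208 and 209.7 CPM at 0 nM, 200.3 and 214 CPM at 12.5 nM, 190.0 and 208 CPM at 25 nM, and 149 and 139 CPM at 50 nM. From there the level was 111 and 117 CPM at 75 nM, 77.4 and 79.7 CPM at 100 nM, 36.8 and 36.7 CPM at 150 nM, and 21.7 and 23.1 CPM at 200 nM. The libraries at 12.5 nM overlapped with those at 0 and at 25 nM, and above 25 nM every dose lay below the one before it. Against 0 nM it was not called at 25 nM (-0.07 ± 0.05, adjusted p = 0.509) and was called at 50 nM with a log2 fold change of -0.54 ± 0.05 (adjusted p = 3.41e-13). At 200 nM the log2 fold change reached -3.22 ± 0.06 (adjusted p = 1.76e-39). Its deepest single step, -1.09 ± 0.07, lay between 100 and 150 nM, a step in which Tfrc gained 0.16 ± 0.03.

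Set against each other in the same library, where scaling cancels, the 2 receptors drew apart at each dose. There were 0.00485 and 0.00517 Tfr2 counts for each Tfrc count at 200 nM, against 0.200 and 0.203 at 0 nM. Between them the ratio stood at 0.171 and 0.190 with 12.5 nM, 0.0711 and 0.0686 with 50 nM, and 0.0208 and 0.0214 with 100 nM.

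Steap3, the reductase that turns ferric into ferrous iron in the endosome of red cell precursors, was the other gene called at 12.5 nM and the only one of the 10 called as a peak. It lies at chr1:120190757-120272705. It had 286 and 289.6 CPM at 0 nM, 320.4 and 319.9 CPM at 12.5 nM, 358 and 354 CPM at 25 nM, and 475 and 486 CPM at 50 nM. The level went on to 551 and 563 CPM at 75 nM and 596 and 589 CPM at 100 nM, and then stood at 555 and 545 CPM at 150 nM and 488 and 491 CPM at 200 nM. Both 100 nM libraries lay above every other library. The log2 fold change against 0 nM was 0.15 ± 0.03 at 12.5 nM (adjusted p = 0.00749), 1.04 ± 0.03 at 100 nM and 0.77 ± 0.03 at 200 nM (adjusted p = 2.51e-26). Leaving out any 1 of the 4 libraries at 12.5 and 0 nM lost the first call, with adjusted p-values of 0.102 to 0.232. A dose counted as a peak where the gene was higher than at both 200 and 0 nM. Steap3 met this at 75 nM (adjusted p = 4.35e-05), 100 nM (9.36e-09) and 150 nM (0.000903), where 1.82%, 1.69% and 0.595% of all genes did.

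Slc11a2, the importer DMT1 that moves ferrous iron out of the endosome, was nearly level up to 100 nM and lower above it, though with library size alone it was already called as lower at 100 nM (-0.14, adjusted p = 0.00413). Its place is chr15:100387898-100425072. Its 2 libraries had 164 and 164 CPM at 0 nM, 171 and 178 CPM at 12.5 nM, 171 and 179 CPM at 25 nM, and 177 and 173 CPM at 50 nM. Next came 179.6 and 178 CPM at 75 nM, 175 and 165 CPM at 100 nM, 135 and 142 CPM at 150 nM, and 114 and 116 CPM at 200 nM. The 150 and 200 nM libraries lay below all the others. Against 0 nM it was called as higher at 75 nM alone (0.12 ± 0.04, adjusted p = 0.013), a call lost with DESeq2 (adjusted p = 0.104), with library size alone and without any 1 of the 4 libraries concerned. The log2 fold change was -0.25 ± 0.05 at 150 nM (adjusted p = 3.77e-06) and -0.51 ± 0.05 at 200 nM (adjusted p = 5.59e-14). An exon of Slc11a2 overlaps one of Gm5475 on the other strand, and without strand their reads cannot be told apart.

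**Figure D2:**
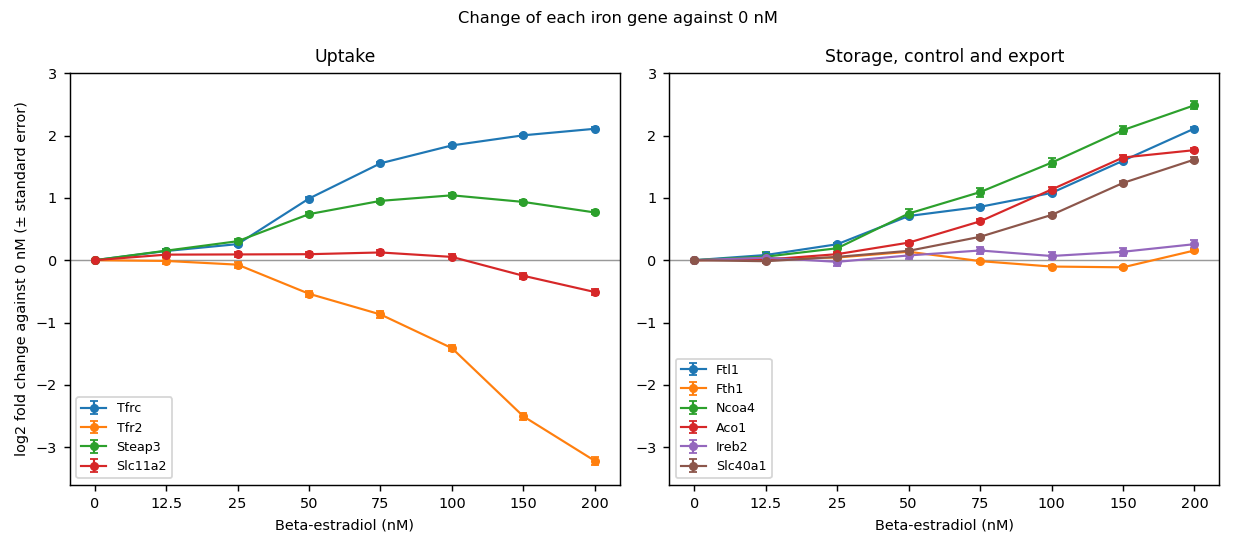
Log2 fold change of each iron gene against 0 nM (y axis, ± standard error of the edgeR fit) by dose of beta-estradiol in nM (x axis, evenly spaced), uptake genes on the left and storage, control and export genes on the right. Tfrc reaches 2.11 and Tfr2 -3.22 at 200 nM, while Fth1 (0.16) and Ireb2 (0.26) stay close to 0 and turn negative at 200 nM with library size alone.

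The 2 ferritin chains, which share a shell and both carry the 5′ hairpin printed above, parted. Ftl1, the light chain that helps build the iron core, lies at chr7:45457944-45459884. It had 2041 and 2018 CPM at 0 nM, 2110.0 and 2189 CPM at 12.5 nM, 2369.8 and 2477 CPM at 25 nM, and 3295 and 3339 CPM at 50 nM. It then had 3624 and 3724 CPM at 75 nM, 4276 and 4299.5 CPM at 100 nM, 5918 and 6349 CPM at 150 nM, and 8858 and 8691 CPM at 200 nM. The libraries of different doses did not overlap and followed the order of the doses. Ftl1 was first called at 25 nM (0.26 ± 0.03, adjusted p = 4.01e-09), and its log2 fold change at 200 nM was 2.11 ± 0.03 (adjusted p = 2.77e-44). Unlike Tfrc it still gained 0.52 ± 0.03 in each of the last 2 steps, between 100 and 150 nM and between 150 and 200 nM.

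Fth1, the heavy chain that oxidises iron as it enters the shell, lies at chr19:9980598-9985098 and hardly moved. Its level was 3960.4 and 3941 CPM at 0 nM, 3953 and 4074 CPM at 12.5 nM, 4007 and 4133 CPM at 25 nM, and 4442 and 4238 CPM at 50 nM. Later doses gave 3899 and 3922 CPM at 75 nM, 3623 and 3739 CPM at 100 nM, 3676 and 3624 CPM at 150 nM, and 4436 and 4367 CPM at 200 nM. The libraries at 100 and 150 nM lay below all the others, and those at 50 and 200 nM were the highest and overlapped. The log2 fold change against 0 nM was 0.14 ± 0.03 at 50 nM (adjusted p = 3.31e-05), -0.10 ± 0.03 at 100 nM (adjusted p = 0.000529) and -0.11 ± 0.03 at 150 nM (adjusted p = 0.00011). At 200 nM it was 0.16 ± 0.03 (adjusted p = 4.86e-07), but -0.23 with library size alone, so the direction at the top dose rests on the scaling. Being lower than at both 200 and 0 nM, Fth1 was called as a dip at 100 nM (adjusted p = 0.0128) and 150 nM (adjusted p = 0.00969), where 0.893% and 0.198% of all genes were. Without either 0 nM library it was called as a dip at no dose, and with library size alone at 150 nM only.

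In the same library the light chain overtook the heavy chain in counts between 75 and 100 nM. There were 2.00 and 1.99 Ftl1 counts for each Fth1 count at 200 nM, against 0.515 and 0.512 at 0 nM. The ratio was 0.929 and 0.9496 at 75 nM and 1.18 and 1.15 at 100 nM. This ratio does not depend on the scaling of the libraries, and both 200 nM libraries lay far above both 0 nM libraries. Per kb the order at low doses depends on the length used. With merged exons the level of Ftl1 was 5.16 times that of Fth1 at 200 nM and 1.33 times at 0 nM, and with the principal transcript it was 3.08 times at 200 nM and 0.793 times at 0 nM. The annotation also names 3 copies of Ftl1 and 2 of Fth1, marked as pseudogenes by their symbols, which were not analysed here. The sources used here do not say how reads that match more than 1 place were counted, so both ferritin levels are uncertain.

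**Figure D3:**
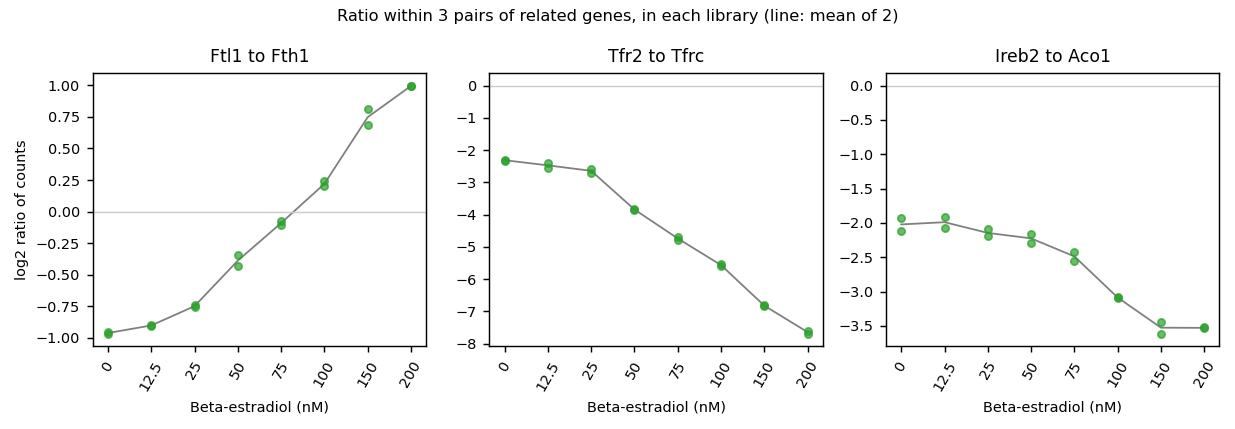
Log2 ratio of counts within a library (y axis) for Ftl1 to Fth1, Tfr2 to Tfrc and Ireb2 to Aco1, by dose of beta-estradiol in nM (x axis, evenly spaced), with a point for each library and a line through the mean of 2. The ferritin ratio crosses 0, where both counts are equal, between 75 and 100 nM, and the other 2 ratios sink.

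Ncoa4, the cargo receptor that carries ferritin to the lysosome so that its iron is released, had the highest fold change of the 10 at 200 nM. It lies at chr14:32159865-32179855. Its 2 libraries had 26.4 and 30.3 CPM at 0 nM, 28.8 and 30.2 CPM at 12.5 nM, 31.0 and 33.9 CPM at 25 nM, and 45.9 and 49.3 CPM at 50 nM. They had 57.7 and 63.3 CPM at 75 nM, 82.6 and 85.2 CPM at 100 nM, 119 and 123 CPM at 150 nM, and 159.5 and 158 CPM at 200 nM. From 25 nM upward no dose overlapped with another. It was first called at 50 nM (0.75 ± 0.07, adjusted p = 1.16e-11), and the log2 fold change at 200 nM was 2.49 ± 0.07 (adjusted p = 5.37e-34).

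The 2 iron regulatory proteins differed in the same manner as the ferritin chains, 1 of them rising and the other nearly level. Aco1 encodes iron regulatory protein 1, which becomes the cytosolic aconitase when it holds an iron-sulfur cluster, and lies at chr4:40143081-40198338. It had 294 and 291 CPM at 0 nM, 289 and 299.6 CPM at 12.5 nM, 313 and 312 CPM at 25 nM, and 365 and 346 CPM at 50 nM. At higher doses it had 454 and 446 CPM at 75 nM, 646 and 637 CPM at 100 nM, 933 and 898 CPM at 150 nM, and 1001 and 988 CPM at 200 nM. Its libraries overlapped at 0 and 12.5 nM only. The log2 fold change was 0.28 ± 0.03 at 50 nM (adjusted p = 1.54e-09), where it was first called, and 1.77 ± 0.03 at 200 nM (adjusted p = 6.21e-41). Its steps were 0.51 ± 0.03 between 75 and 100 nM, 0.51 ± 0.03 between 100 and 150 nM, and 0.12 ± 0.03 between 150 and 200 nM (adjusted p = 0.00184). With library size alone the last step was 0.01 and not called.

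Ireb2, iron regulatory protein 2, which is removed by the ligase subunit Fbxl5 when iron is plentiful, lies at chr9:54863789-54912530. Its level was 67.8 and 76.4 CPM at 0 nM, 76.9 and 71.5 CPM at 12.5 nM, 73.3 and 68.2 CPM at 25 nM, and 74.6 and 77.4 CPM at 50 nM. Further up it was 77.5 and 83.2 CPM at 75 nM, 76.7 and 74.3 CPM at 100 nM, 76.2 and 82.8 CPM at 150 nM, and 87.3 and 85.1 CPM at 200 nM. Both 200 nM libraries lay above all the others, and each of the other doses overlapped with at least 1 more. The log2 fold change at 200 nM was 0.26 ± 0.06 (adjusted p = 0.000321), but -0.12 with library size alone, and without the first 0 nM library the call was lost (adjusted p = 0.0578). A call at 75 nM (0.16 ± 0.06, adjusted p = 0.0315) was lost with DESeq2 (adjusted p = 0.165), with RLE scaling, with library size alone and without the first 0 nM or the second 75 nM library. There were 0.0872 and 0.0861 Ireb2 counts for each Aco1 count at 200 nM, against 0.231 and 0.263 at 0 nM.

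Slc40a1, the exporter ferroportin, lies at chr1:45908068-45926523. It had 209 and 221 CPM at 0 nM, 212 and 213 CPM at 12.5 nM, 225 and 221 CPM at 25 nM, and 238 and 239 CPM at 50 nM. Afterwards it had 282 and 275 CPM at 75 nM, 357 and 354 CPM at 100 nM, 505 and 510.5 CPM at 150 nM, and 666 and 651 CPM at 200 nM. The libraries at 0 and 12.5 nM overlapped, and the higher doses stood apart from each other in order of dose. It was called from 50 nM (0.15 ± 0.04, adjusted p = 0.000779), a call lost with library size alone (adjusted p = 0.0776) and without the first 0 nM library (adjusted p = 0.0607). At 200 nM the log2 fold change was 1.61 ± 0.03 (adjusted p = 3.21e-38). The 3 genes with the 5′ hairpin therefore had log2 changes of 1.61 (Slc40a1), 2.11 (Ftl1) and 0.16 (Fth1, -0.23 with library size alone) at the top dose.

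The doses at which the changes fell differed between the genes. For the 6 genes with a called change of 2-fold or more at 200 nM, the dose at the midpoint of the log2 change was read by interpolation, as a description. It depends on where the series ends, since Ftl1, Ncoa4, Slc40a1 and Tfr2 still moved between 150 and 200 nM by 0.52, 0.40, 0.38 and -0.71 on the log2 scale. The earliest was Tfrc at 52.9 nM (52.0 to 53.7 nM when each library was left out in turn). Ncoa4 followed at 83.0 nM (80.2 to 85.1 nM) and Aco1 at 87.7 nM (87.4 to 88.0 nM). Ftl1 came at 97.4 nM (96.6 to 98.2 nM). Slc40a1 stood at 107.5 nM (106.0 to 108.5 nM) and Tfr2 at 109.0 nM (107.9 to 110.1 nM), and their ranges overlap. On the CPM scale in place of the log scale Tfrc was still first, at 67.6 nM, but Tfr2 came next at 73.8 nM, and Aco1 (100.3 nM), Ncoa4 (113 nM), Slc40a1 (126 nM) and Ftl1 (130.2 nM) followed. The early place of Tfrc held on both scales, and the place of Tfr2 did not. The ranges above leave out the scaling. On the log2 scale, library size alone gave 48.1 nM for Tfrc, 80.0 nM for Ncoa4, 85.6 nM for Aco1 and 96.1 nM for Ftl1. Each of these lies below its range. It gave 108.4 nM for both Slc40a1 and Tfr2.

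Neighbouring doses were also compared by test. Between 12.5 and 25 nM 3 of the 10 genes were called (1.09% of all genes were), namely Tfrc, Steap3 and Ftl1. With library size alone Ftl1 was the 1 gene called, and adjusted p was 0.136 for Tfrc and 0.0514 for Steap3. The Tfrc call was also lost without the second 12.5 nM or either 25 nM library, and that of Steap3 without the first library of either dose. The next 4 steps called 8 of the 10 each, where 26.2%, 32.3%, 27.5% and 40.9% of all genes were called. The step between 150 and 200 nM called 9 (39.3%). The call of Slc40a1 between 25 and 50 nM was lost with DESeq2 (adjusted p = 0.0956) and with library size alone (adjusted p = 0.126). That of Steap3 between 75 and 100 nM was lost with library size alone (adjusted p = 0.677). Both calls were also lost in fits without 1 library. Over such fits the log2 change was 0.08 to 0.11 for Slc40a1 and 0.07 to 0.11 for Steap3. Calls of Fth1 were lost in some of them too. Its log2 change was then 0.05 to 0.13 between 25 and 50 nM and -0.11 to -0.06 between 75 and 100 nM. Ireb2 was called at no step, and Slc11a2 at the last 2, to which library size alone added the step between 75 and 100 nM (-0.14, adjusted p = 0.00899).

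Compared per kb of merged exons, the order of the levels was much the same at both ends of the series, with Ftl1, Fth1, Tfrc, Aco1 and Steap3 on top. Ftl1 had 6548 ± 87.9 CPM per kb at 200 nM, against 1514 ± 12.2 at 0 nM (SD, n = 2 each), and Tfrc had 723 ± 0.793 at 200 nM, against 168 ± 0.788 at 0 nM. Tfr2 went to the bottom place, with 5.16 ± 0.241 CPM per kb at 200 nM, against 48.2 ± 0.267 at 0 nM. Slc40a1 had 73.2 ± 1.22 CPM per kb at 200 nM, against 23.9 ± 0.923 at 0 nM. Neighbours in the order overlapped at 150 nM alone, where Tfr2 and Ireb2 could not be told apart. With the length of the principal transcript Fth1 stood above Ftl1 in the 3 lowest doses. Steap3 then had 94.9 CPM per kb at 200 nM, below Slc40a1 with 195 CPM per kb, and 55.8 CPM per kb at 0 nM, below Tfr2 and Slc40a1. Slc40a1 then overlapped Tfr2 at 25 nM, Steap3 overlapped Aco1 at 50 nM, and Ncoa4 overlapped Ireb2 at 75 nM.

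**Figure D4:**
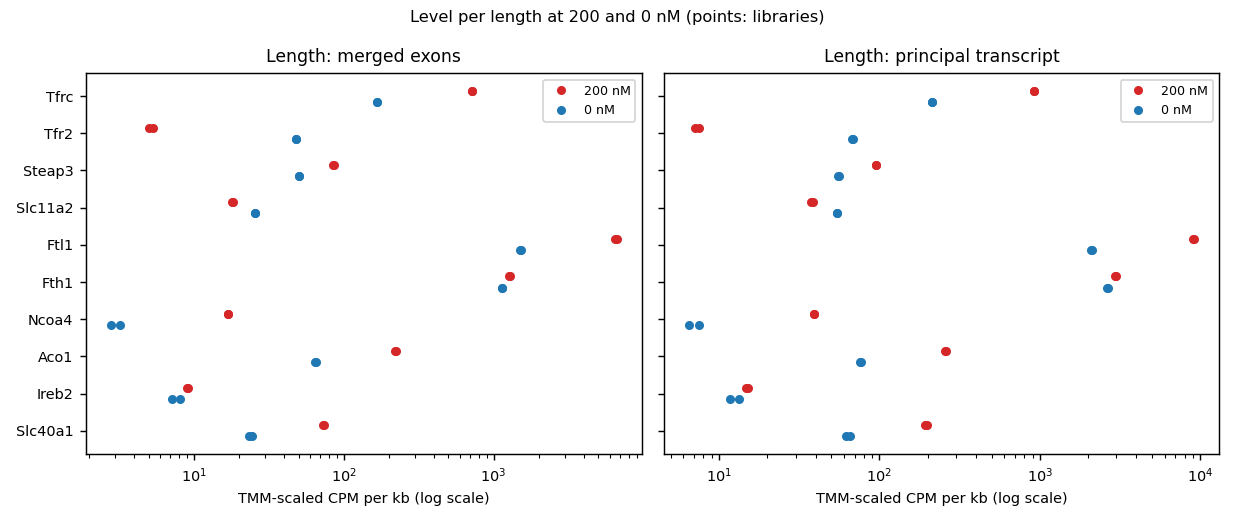
TMM-scaled CPM per kb (x axis, log scale) of the 10 iron genes at 200 nM (red) and 0 nM (blue), with a point for each library, by merged exons on the left and by the principal transcript on the right. Tfr2 moves to the bottom at 200 nM (5.16 CPM per kb of merged exons), and Ftl1 stands at the top at 200 nM by both lengths.

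Genes with the most similar course over the 16 libraries were found by Pearson's r of log2 CPM among 6515 genes, as a description. For Tfrc these were Rhd (r = 0.998), Cdc25b (0.998) and Uros (0.998). Rhd encodes the red cell Rh protein, Cdc25b a phosphatase of the cell cycle and Uros an enzyme of heme synthesis. For Tfr2 they were Wdr55, Exosc7 and Smyd5, each at r = 0.998 or 0.999. In that order they had 49.8, 49.7 and 15.3 CPM at 200 nM, against 118, 193 and 133 CPM at 0 nM. A high r does not mean a change of like size. Cdc25b had 694 CPM at 200 nM, against 14.4 CPM at 0 nM, a far larger rise than that of Tfrc. For Ftl1, Ptdss2 (0.996) and Prkab1 (0.995) were among them. Such likeness is common here, since 676 genes passed r = 0.95 with Tfrc, 1356 with Tfr2 and 1133 with Ftl1, over libraries that share the same doses.

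Around these 10 genes, 47 others of iron handling were in the table and 24 were tested, among which 13 were higher and 8 lower at 200 nM (80% of all genes were called). With library size alone 11 were higher and 11 lower, where 2819 of all genes were higher and 5396 lower. Their median log2 change was 0.44, beside 0.02 over all genes tested. Of all genes, 40.5% were called as higher and 39.5% as lower at 200 nM. By group at that dose, 5 of 6 tested genes for the endosome traffic of the transferrin receptor were higher and none lower. At 75, 100 and 150 nM 1 of the 6 was called as lower, where 26.9%, 32.5% and 36.6% of all genes were. Of 5 iron chaperones 4 were lower at 200 nM and none higher. The call of the traffic gene Vps35 was lost with library size alone (adjusted p = 0.827) and that of the chaperone Pcbp2 with DESeq2 (adjusted p = 0.0718). Both tested genes of ferritin breakdown were higher. Of 5 tested genes that control Ireb2 protein or Tfrc RNA, 2 were higher and 2 lower, and Fbxl5 was not called (0.02 ± 0.08, adjusted p = 0.86). Of 4 tested genes with a known iron-responsive element outside the 10, 2 were higher (Alas2 and Cdc42bpa, the second not called with library size alone, adjusted p = 0.353) and 2 lower. Only 1 of 12 uptake accessory genes and 1 of 9 genes of export and body iron passed the filter on low counts.

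Alas2, the first enzyme of heme synthesis in red cells, whose transcript also carries an iron-responsive element, had the highest fold change of the 24. It had 4355 and 4286 CPM at 200 nM, against 32.9 and 32.8 CPM at 0 nM, a log2 fold change of 7.04 ± 0.04 (adjusted p = 2.43e-61). Fam132b, the erythroid hormone erythroferrone that lowers hepcidin in the liver, had 198 and 194 CPM at 200 nM, against 6.99 and 6.68 CPM at 0 nM (4.84 ± 0.08, adjusted p = 2.46e-43). The gene for hepcidin, Hamp, did not pass the filter on low counts. Ehd1, which recycles receptors out of endosomes, had 903 and 868 CPM at 200 nM, against 162 and 156 CPM at 0 nM (2.48 ± 0.04, adjusted p = 7.84e-46). Picalm, a clathrin adaptor needed for the uptake of the transferrin receptor, had 112 and 109 CPM at 200 nM, against 28.0 and 31.2 CPM at 0 nM. Snx3, which returns the receptor from endosomes, had 743 and 762 CPM at 200 nM, against 431 and 430.5 CPM at 0 nM. These 3 traffic genes were higher in both 200 nM libraries than in either 0 nM library. At this dose 40.5% of all genes were called as higher. The 3 were named by their adjusted p-values, so this separation is no further support.

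Among genes tied to ferritin breakdown, Tax1bp1, an autophagy adaptor, had 568 and 559 CPM at 200 nM, against 152 and 159 CPM at 0 nM (1.86 ± 0.04, adjusted p = 1.87e-38). Herc2, a ligase that in human cells marks NCOA4 for decay, had 103 and 107 CPM at 200 nM, against 43.7 and 42.1 CPM at 0 nM (1.29 ± 0.07, adjusted p = 6.04e-23). Both moved the same way as Ncoa4. Slc39a8, an importer of zinc and other metals including iron, had 379 and 403 CPM at 200 nM, against 151 and 146 CPM at 0 nM (1.40 ± 0.04, adjusted p = 1.22e-33). At 12.5 nM 0 of the 24 genes were called by edgeR or DESeq2, where edgeR called 0.506% of all genes. An unadjusted edgeR p under 0.05 was found for 3, a number that was not set against all genes. At 25 nM 5 of the 24 were called, all higher, where 4.02% of all genes were called and 3% were higher: Alas2 (0.77 ± 0.05), Fam132b (0.46 ± 0.12), Ehd1 (0.27 ± 0.04), Slc39a8 (0.20 ± 0.04) and Snx3 (0.16 ± 0.03). Pcbp4, a chaperone-family gene named here after its values were seen, had 0 counts at 200 nM, against 103 counts at 0 nM, and was at least 24.2-fold lower, taking 3 counts over the group as the floor.

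**Figure D5:**
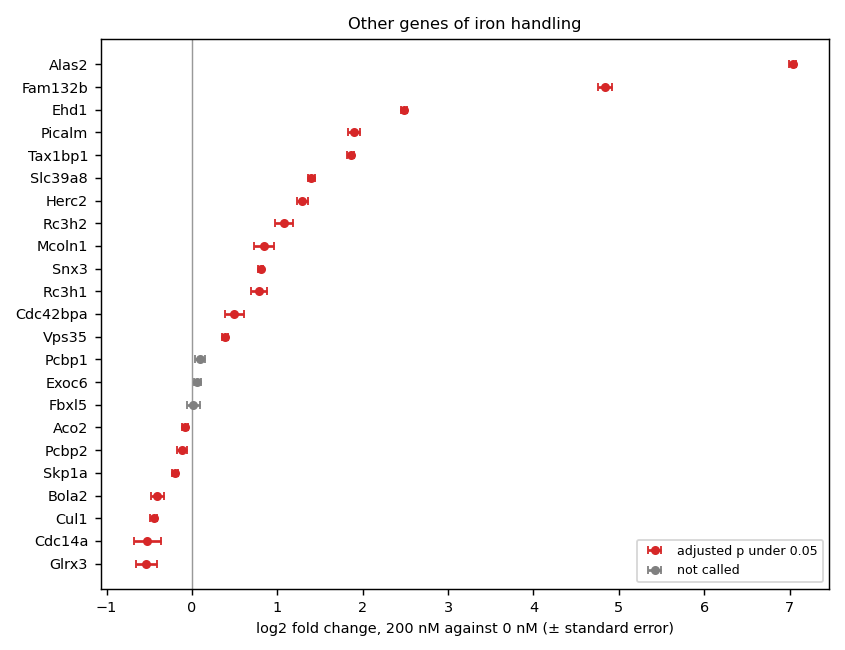
Log2 fold change at 200 nM against 0 nM (x axis, ± standard error of the edgeR fit) of 23 of the 24 other iron genes tested, with called genes in red and the rest in grey, and without Pcbp4, which had 0 counts at 200 nM. Alas2 (7.04) and Fam132b (4.84) stand far to the right, and the iron chaperones Bola2 and Glrx3 lie left of 0.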

How the data were processed

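The authors deposited raw counts of reads per gene symbol for 16 libraries, made with Smart-seq2, an unstranded protocol without molecular identifiers. Per the submitters' processing notes, the tools were bcl2fastq and STAR, and the genome was mm10. The sources used here name neither the tool versions nor the counter, its annotation or its rule for reads that match more than 1 place. Totals were 9393156 to 15802510 counts, so that levels near 1 CPM rest on few reads.

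In R 4.3.3, edgeR 4.0.16 kept 10080 genes (filterByExpr by dose), scaled them by TMM and fitted a robust quasi-likelihood model to all 16 libraries with dose as a factor. P-values were adjusted by Benjamini-Hochberg over all genes in each contrast, and a standard error is the log2 change over the square root of F. The fit was also run on simulated data in which few genes changed, at the top dose alone. That run cannot test the scaling of these libraries, where most genes were called. A peak or dip took the larger p of 2 contrasts. Midpoint doses used log2 CPM with a prior count of 2. Positions, lengths and untranslated regions came from GENCODE M21, promoters from RefSeq on GRCm38.p6. Alternatives were RLE scaling, library size alone, no filter, DESeq2 1.42.0, leaving out Rn45s and globin genes, a replicate block, the 2 doses alone and each library left out.

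The 10 genes, the other lists and the naming rule (all 10 genes, the 8 other iron genes with the smallest adjusted p at 200 nM and those called at 25 nM or below, and the 3 nearest genes of Tfrc, Tfr2 and Ftl1 by r among genes reaching 20 CPM) were chosen with earlier results of these data known. Of the genes picked by the rule, 1 is not reported here. Protein sequences were not used here.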

Additional observations from a re-analysis of the deposited data

How the results depend on the processing

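With RLE scaling, DESeq2, no filter on low counts, Rn45s and globin genes left out, or the libraries of the 2 doses alone, every count of the 10 genes and of the 24 others stayed within 1.5 times that reported. With library size alone 1 of the 10 genes was called between 12.5 and 25 nM in place of 3, and the cause was not tested. The same setting turned the log2 change of Slc11a2 at 100 nM (-0.14, against 0.05), Fth1 at 200 nM (-0.23), Ireb2 at 200 nM (-0.12) and Tfrc between 150 and 200 nM (-0.00355). It lowers every log2 change at 200 nM by about the same amount, with the median gene at -0.36 in place of 0.02. It split all genes called into 2819 higher and 5396 lower, against 4086 and 3977. Beside the 4 turned changes, library size alone lost 8 single calls of the 10 genes and gained 3. Fth1 was among those gained, as lower at 75 nM (-0.13, adjusted p = 5.45e-06) and between 100 and 150 nM (-0.10, adjusted p = 0.00107).

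Without 1 library of the doses compared, the lone library was assumed to vary like the others. The count at 12.5 nM was then 0 to 1 in place of 2, that between 12.5 and 25 nM 1 to 2 in place of 3, and the dips 0 to 1. Of single calls of the 10 genes, 30 were lost and 2 gained in such fits, 3 were lost with DESeq2 and 1 with RLE scaling.

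With a replicate block all 10 genes were again called at 200 nM, 8 higher and 2 lower, and the block changed no call of the 10 genes. The numbers do not pair the libraries: over 28 pairs of doses the correlation of same-numbered deviations was -0.27 to 0.21, with 3 pairs above 0.1.

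Changes of Fth1 and Ireb2 are smaller than the shift of scaling, and calls at 12.5 nM rest on single libraries. So do the calls of Fth1 and Slc40a1 between 25 and 50 nM, and of Fth1 and Steap3 between 75 and 100 nM.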
